A study of Mus musculus with 18 samples.

Results

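The comparison described here set 3 livers of C57BL/6J mice given a chemically stabilised miR-497a-5p mimic against 3 livers of C57BL/6J mice given an inert scrambled mimic, all taken at postnatal day 14 (P14). These are 6 of the 18 liver libraries of the series, chosen by the day and injection that their titles give. The other 12 libraries hold the same 2 injections at P5 and P7, with 3 livers each. Every pup was injected into the peritoneum on day 1 and day 3 after birth, so the P14 livers were taken 11 days after the second injection. The treatment protocol names a dose of 100 mg per kg and a dose of 10 mg per kg, and no label says which of them a single pup received. Litters were randomised to nursing dams, but litter and sex of each pup are not labelled, and no label says whether pups of a group shared a dam. The p-values therefore measure the spread between single livers of a group, pooled over all 18 libraries except where a fit to the P14 libraries is named. A small cube of each liver was homogenised whole, so that fewer cells of a type and less RNA per cell cannot be told apart. The level of the microRNA itself was not analysed here.

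A microRNA guides the silencing complex to messenger RNAs whose 3′ untranslated region (UTR) pairs with its seed, the stretch of nucleotides 2 to 8, and the paired transcripts are translated less and decay faster. miR-497 belongs to the miR-15/16 family, which is known for holding back the cell cycle by pairing with transcripts of cyclins and their kinases. In the days after birth the mouse liver loses its role in making blood, and hepatocytes take on the enzymes of adult metabolism. Cholesterol synthesis in the liver is set by the sterol sensing factor SREBP2, which raises its enzyme genes when sterols run low.

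The sequences are shown because the mimic carries the seed of a whole family, so that its targets are shared with microRNAs the liver already makes. The mature mouse sequences of 6 family members, from RefSeq on GRCm38.p6, are given 5′ to 3′ with the seed in capitals.
miR-497a-5p: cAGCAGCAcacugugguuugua
miR-195a-5p: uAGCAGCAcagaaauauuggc
miR-15a-5p: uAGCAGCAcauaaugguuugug
miR-15b-5p: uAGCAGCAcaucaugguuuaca
miR-16-5p: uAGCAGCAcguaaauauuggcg
miR-322-5p: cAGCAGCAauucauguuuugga
All 6 share the seed AGCAGCA and differ after it. miR-497a-5p lies on chromosome 11 at 70234730 to 70234751 on the plus strand, beside miR-195a-5p at 70235062 to 70235082. RefSeq lists 10 mature mouse microRNAs with this seed. The sequence and chemistry of the injected mimic are not given in the sources used here.

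The deposited values are scaled counts, rounded to whole numbers by the authors. The 6 P14 libraries summed to 3968022 to 4181670 scaled counts, and 19288 to 19971 genes were above 0. Albumin (Alb) lay between 2037 and 2244 in all 6, and the mean log2 level of 18 hepatocyte genes lay between 9.26 and 9.50. The highest value of any gene in a P14 library was 3515 to 5201. Whether the deposited values compress abundant transcripts, such as Alb, was not tested, so an even level of such genes is of limited weight. Genes of chromosome Y were high in scrambled replicate 1 and mimic replicates 1 and 2, where Ddx3y was at 697, 715 and 1065, and Xist was high in the other 3 livers, at 1507 to 1870. By these genes 1 of 3 scrambled and 2 of 3 mimic livers were male. Msln, a marker of the mesothelium that covers the liver, was at 133 and 124 in mimic replicates 1 and 2, at 1 in mimic replicate 3 and at 21, 30 and 22 in the scrambled livers. The rank correlation across genes between transcript length and a library's level relative to the mean of all libraries was -0.11, -0.087 and 0.016 in the scrambled livers and -0.24, -0.0089 and -0.20 in the mimic livers. The part of sex, mesothelium and this length slope in the results below was not tested beyond the alternatives given in the closing section.

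The test covered the 14104 genes whose mean over all 18 libraries reached 10. Of these, 3 differed between mimic and scrambled livers at P14 at a limma adjusted p under 0.05, which is 0.0213% of the genes tested. Sqle and Kel were higher in the mimic livers, or 0.0142%, and Cyp2c54 was lower, or 0.00709%. At an unadjusted p under 0.05 there were 763 genes, or 5.41%, of which 439 (3.11%) were higher and 324 (2.3%) lower. The 3 mimic values all lay above the 3 scrambled values in 700 genes (4.96%) and all below in 613 (4.35%), together 9.31%. The log2 difference was above 0 in 51.1% of genes, with a median of 0.0036. Few transcripts were therefore past the threshold 11 days after the last injection. The 12 higher and 12 lower genes of smallest p that are named below were taken only from genes without overlap between the groups, so that their lack of overlap is fixed by the choice.

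**Figure D1:**
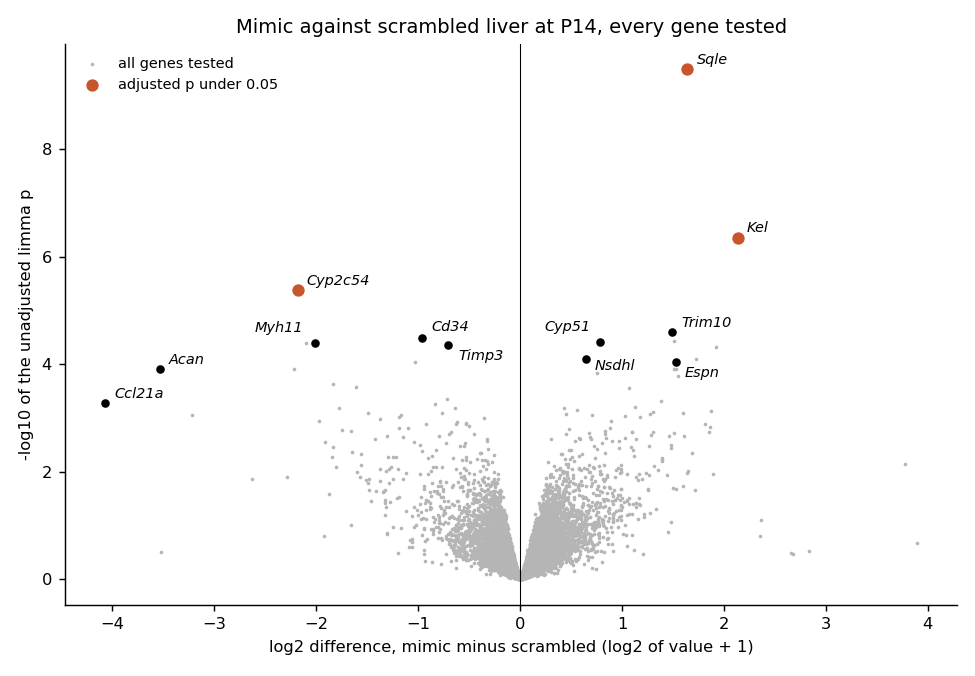
Each point is 1 of the 14104 genes tested. The horizontal axis is the log2 difference between mimic and scrambled livers at P14 and the vertical axis is -log10 of the unadjusted limma p. Sqle, Kel and Cyp2c54, in orange, are past an adjusted p of 0.05, and the genes in black are named in the text.

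Sqle encodes squalene epoxidase, which adds oxygen to squalene at the first step that commits it to sterols. It lies on the plus strand of chromosome 15, from 59315081 to 59331192 in mm10. The scrambled livers had scaled counts of 67, 81 and 75 and the mimic livers 256, 187 and 266. The lowest mimic liver was above the highest scrambled liver by more than the whole range of either group. The ratio of the means was 3.18 and the log2 difference 1.64 (95% interval 1.36 to 1.93), with a limma adjusted p of 4.66e-06. It kept that direction in each of the 20 alternatives and lost the threshold in 1 of them, the fit to the P14 libraries with the length slope as a covariate, at an adjusted p of 0.383.

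The excess of Sqle was set against the livers of the same injections at earlier days. Sqle had 487, 515 and 604 in the scrambled livers at P7 and 578, 652 and 501 in the mimic livers, and the groups overlapped. From P7 to P14 its level fell in both groups, by 2.83 on the log2 scale in the scrambled and by 1.29 in the mimic livers (limma adjusted p 1.92e-10 and 1.88e-06). The effect at P14 exceeded the mean of the effects at P5 and P7 by 1.62 (95% interval 1.27 to 1.97, limma adjusted p 1.57e-04). It was 1 of 2 genes (0.0142%) past the threshold in that comparison, where 810 genes (5.74%) had an unadjusted p under 0.05, and Kel was the other.

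Fdft1, which makes the substrate of squalene epoxidase, was at a log2 difference of -0.02. None of the later enzymes described next passed the threshold. Cyp51 encodes lanosterol 14-alpha demethylase. Its scaled counts were 318, 471 and 396 in scrambled and 727, 612 and 677 in mimic livers. The log2 difference was 0.78 (95% interval 0.48 to 1.08) with a limma adjusted p of 0.061. Nsdhl encodes the decarboxylating sterol dehydrogenase that acts after it. Nsdhl had 149, 154 and 118 in scrambled and 229, 198 and 230 in mimic livers, with a log2 difference of 0.64 (0.38 to 0.91) and a limma adjusted p of 0.087. Msmo1, the methylsterol oxidase between them, had 246, 368 and 279 in scrambled and 467, 396 and 434 in mimic livers, a log2 difference of 0.55 and a limma adjusted p of 0.293.

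Upstream of squalene, the genes of the mevalonate steps gave a wider range. Idi1, the isopentenyl diphosphate isomerase, was low, at 12, 15 and 12 in scrambled and 21, 39 and 25 in mimic livers (log2 difference 1.03, limma adjusted p 0.294). Mvd, the mevalonate diphosphate decarboxylase, was at 50, 51 and 57 in scrambled and 89, 68 and 158 in mimic livers (0.89, adjusted p 0.321 in limma). Hmgcs1, the synthase before mevalonate, was at 920, 868 and 826 in scrambled and 1041, 1040 and 1074 in mimic livers. These 3 genes had no overlap between groups, although the Hmgcs1 difference was only 0.27 (95% interval 0.086 to 0.46).

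Of the 20 enzymes from acetyl-CoA to cholesterol, 17 had a log2 difference above 0, with a list median of 0.22, against 51.1% and 0.0036 over all genes tested. Only Sqle passed the threshold, and 8 were higher at an unadjusted p under 0.05, against 3.11% of all genes. In 9 of the 20 all 3 mimic values were above the scrambled ones, against 4.96% of all genes. Ebp, which acts on a late sterol, was at -0.04. The mean log2 level of the list was 7.81, 8.03 and 7.83 in scrambled livers and 8.23, 8.19 and 8.40 in mimic livers, so that the groups did not overlap. Without mimic replicate 3 the list median was 0.14. At P7 the median difference of the same list was 0.099 and at P5 it was -0.11. Of the genes of cholesterol uptake and export 8 of 15 were above 0, with a median of 0.026 that ranged from -0.095 to 0.051 with 1 liver left out. In that list the canalicular sterol exporters Abcg5 and Abcg8 had differences of -0.31 and -0.34, neither past the threshold.

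**Figure D2:**
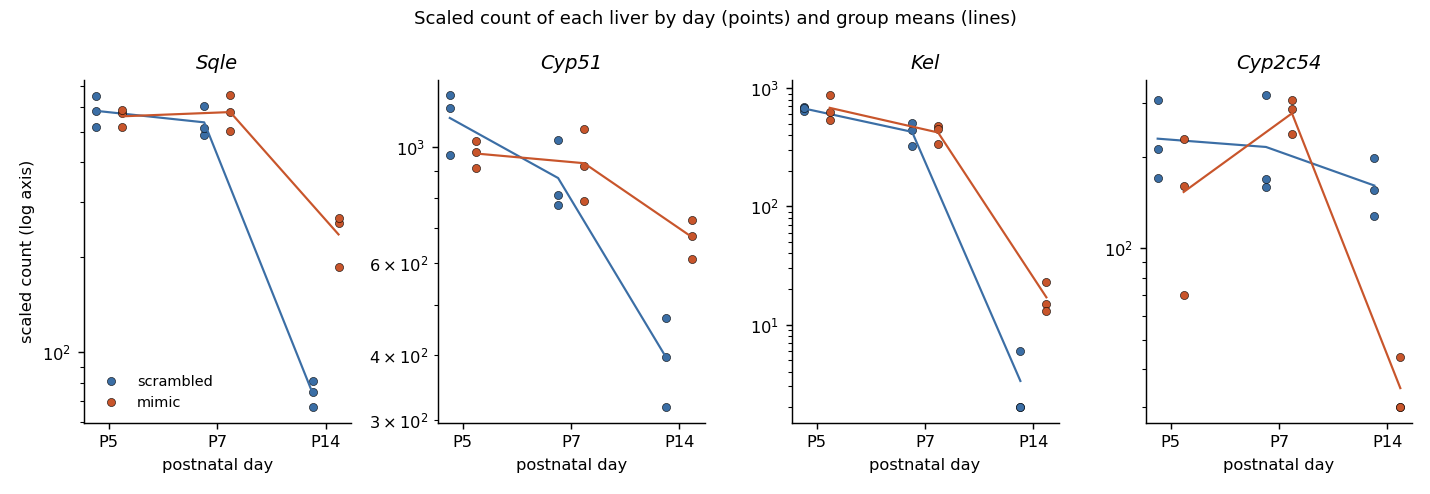
Scaled counts of Sqle, Cyp51, Kel and Cyp2c54 in each of the 18 livers on a log axis, with days spaced evenly. Points are single livers and lines join the group means. Sqle and Kel fell in both groups after P7 and were lower in the scrambled livers at P14, and Cyp2c54 was lower in the mimic livers at P14.

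The start regions of Cyp51 and Nsdhl are shown because both genes are among the higher ones of smallest p and SREBP2 is known to act there together with NF-Y, which binds the letters CCAAT. Each runs from 250 bases before the RefSeq start to 50 after it (GRCm38.p6), 5′ to 3′ on the gene's strand. Capitals mark CCAAT on either strand, written ATTGG where it lies on the other one.
Cyp51, chr5:4104648-4104947, minus strand: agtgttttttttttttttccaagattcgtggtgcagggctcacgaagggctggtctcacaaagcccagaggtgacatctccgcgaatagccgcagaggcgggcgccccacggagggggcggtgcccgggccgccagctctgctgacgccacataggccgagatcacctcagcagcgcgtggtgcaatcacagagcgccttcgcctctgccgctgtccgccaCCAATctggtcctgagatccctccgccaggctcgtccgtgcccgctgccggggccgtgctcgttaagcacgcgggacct
Nsdhl, chrX:72918271-72918570, plus strand: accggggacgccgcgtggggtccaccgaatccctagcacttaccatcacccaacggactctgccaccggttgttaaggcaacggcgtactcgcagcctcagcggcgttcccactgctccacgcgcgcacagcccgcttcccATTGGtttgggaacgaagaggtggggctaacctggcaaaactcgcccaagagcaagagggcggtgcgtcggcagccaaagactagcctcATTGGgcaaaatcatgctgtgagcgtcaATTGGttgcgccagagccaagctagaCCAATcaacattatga
The Cyp51 window holds the letters at 1 position and the Nsdhl window at 4. The RefSeq table matched 15 of the 20 enzyme genes with 18 start windows, and 14 windows (77.8%) held CCAAT on either strand, against 37.4% of the 32851 windows in the table. Sqle had no entry in that table, so its start region is not among them. The sterol element TCACNCCAC, searched on both strands, was in 1 of the 18 windows, or 5.56%, against 1.24% of all. A match describes the letters in the window and not a bound site.

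Kel encodes the Kell blood group protein, a surface peptidase of red cells and their precursors. It lies on the minus strand of chromosome 6 between 41686330 and 41704339. The scrambled livers had scaled counts of 2, 2 and 6, and the mimic livers 15, 23 and 13. All mimic values were above the scrambled ones, at levels far under the 325 to 511 of the scrambled livers at P7. The log2 difference was 2.14 (95% interval 1.55 to 2.73) with a limma adjusted p of 0.00311. It exceeded the mean effect at P5 and P7 by 2.15 (limma adjusted p 0.045). Fitted to the 6 P14 libraries alone, the limma adjusted p was 0.496. With the red cell level of each library as a covariate the difference was 1.49 with a limma adjusted p of 0.0768. Kel is itself among the genes averaged in that covariate.

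Other genes of red cell precursors had positive differences without passing the threshold. Trim10, a ubiquitin ligase of maturing red cells, had scaled counts of 8, 18 and 23 in scrambled and 40, 51 and 42 in mimic livers (log2 difference 1.49, limma adjusted p 0.061). Tspo2, a cholesterol binding protein of red cell precursors, had 3, 5 and 8 against 11, 20 and 19 (1.51, limma adjusted p 0.061). In both of them scrambled replicate 1 had the lowest value.

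Of 31 tested red cell genes, 28 had a log2 difference above 0, with a median of 0.45. At an unadjusted p under 0.05, 15 were higher, against 3.11% of all genes. In 11 of the 31 all 3 mimic values were above the scrambled values, against 4.96% of all genes. The mean log2 level of the list was 4.63, 5.47 and 5.54 in scrambled livers and 5.89, 6.13 and 5.56 in mimic livers. The groups did not overlap, but mimic replicate 3 was above scrambled replicate 3 by only 0.03, and scrambled replicate 1 was the lowest liver, without which the list median was 0.29. The alpha globin gene Hba-a1, at -0.01, and the beta globin gene Hbb-bt, at 0.21, mark the range of the 4 globin genes tested. These 2 genes were named after their values were seen, and the near-identical alpha globin copies may share reads.

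**Figure D3:**
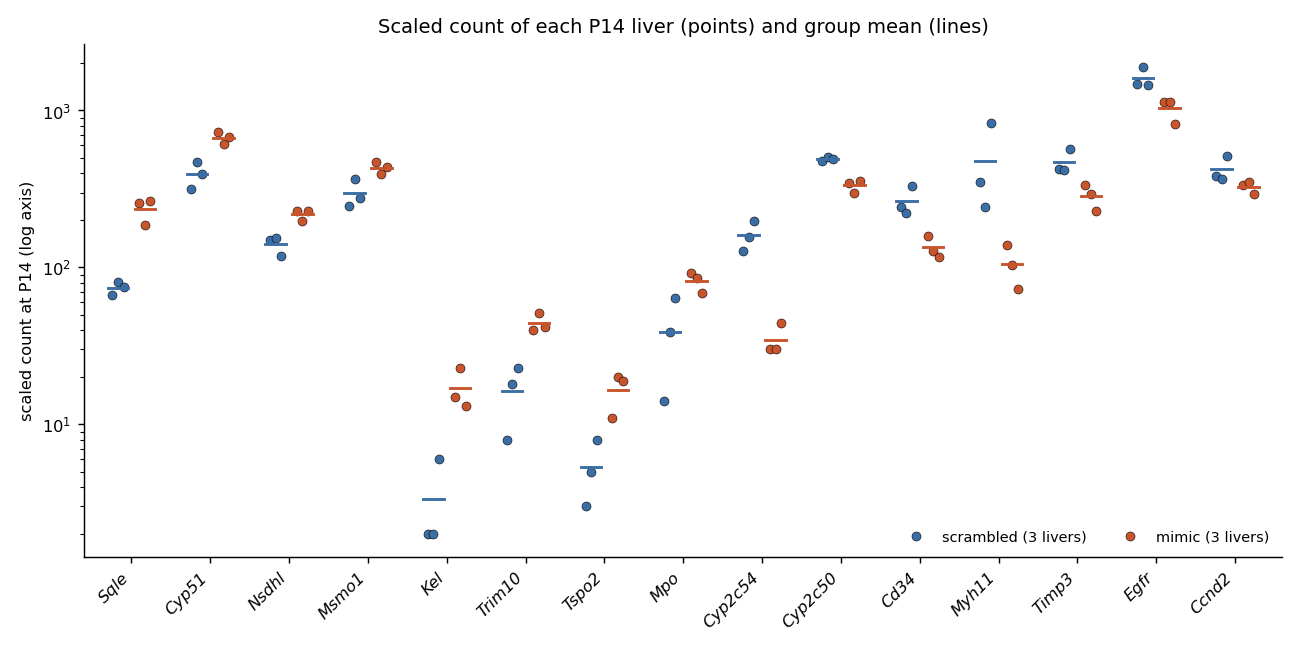
Scaled counts of 15 genes in each of the 6 P14 livers on a log axis, with the group means as lines. All 15 genes have 3 mimic values on 1 side of the 3 scrambled values, as the rule that named most of them required. Sqle shows a wide gap between the groups, and Msmo1, Mpo and Ccnd2 show a narrow one.

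Transcripts of white blood cells mostly had differences above 0, with more overlap between the groups. All 22 tested neutrophil genes had a log2 difference above 0, with a median of 0.68. While 11 were higher at an unadjusted p under 0.05, against 3.11% of all genes, none passed the threshold. Mpo, the myeloperoxidase of early granules, was at 14, 39 and 64 in scrambled and 92, 86 and 69 in mimic livers (log2 difference 1.29, limma adjusted p 0.382). Elane, the neutrophil elastase, was at 9, 13 and 18 in scrambled and 30, 20 and 30 in mimic livers. For the list as a whole the groups overlapped: its mean log2 level was 3.93, 4.48 and 5.02 in scrambled and 5.61, 5.27 and 4.87 in mimic livers. Scrambled replicate 3 was thus above mimic replicate 3. In 4 of the 22 genes all mimic values were above the scrambled ones, against 4.96% of all genes.

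B cell genes leaned likewise, with 14 of 15 above 0 and a median of 0.65. Of these 15, 5 were higher at an unadjusted p under 0.05, against 3.11% of all genes. Cd79a, a chain of the B cell receptor, had 58, 49 and 90 in scrambled and 106, 107 and 95 in mimic livers (log2 difference 0.68, limma adjusted p 0.685). List levels overlapped, since scrambled replicate 3, at 5.62, was above mimic replicate 3, at 5.34. The 4 tested genes of eosinophils, basophils and mast cells were all above 0, at levels of a few scaled counts. Among them Mcpt8, a protease of basophils, had 2, 4 and 2 against 15, 6 and 9 (1.55, limma adjusted p 0.110).

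Platelet genes were above 0 in 13 of 16 cases, with a median of 0.24, and this rested on mimic replicate 1. F2rl2, a thrombin receptor of platelets, was at 49 in that liver and at 24 and 14 in the other mimic livers, against 10, 22 and 11 in the scrambled ones. Without mimic replicate 1 the median of the list was -0.10. T and NK cell genes were above 0 in 8 of 14 cases, with a median of 0.075. Klrd1, an NK cell receptor chain, had 15, 20 and 22 in scrambled and 40, 56 and 25 in mimic livers. Kupffer cell genes, which mark the resident macrophages, had a median of 0.052 and none at an unadjusted p under 0.05.

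Cyp2c54 encodes a cytochrome P450 of the 2c cluster on chromosome 19, whose enzymes oxidise drugs, fatty acids and steroids. The gene runs from 40037941 to 40073811 on the minus strand. Its scaled counts were 128, 156 and 199 in scrambled and 30, 30 and 44 in mimic livers, with no overlap. The log2 difference was -2.18 (95% interval -2.90 to -1.47) and the limma adjusted p 0.0198. Without mimic replicate 1 or 2 the adjusted p was 0.0956 or 0.0860, and with the red cell covariate it was 0.343 at a difference of -1.82. The effect minus that at the earlier days was -2.05 with a limma adjusted p of 0.235, and the days were thus not shown to differ. At P5 the mimic livers ranged from 70 to 229 and at P7 from 238 to 309, against 170 to 307 and 159 to 319 in the scrambled livers.

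Reads of this gene can be shared with its relatives: 25.7% of the 50-base stretches of its longest transcript, of 1786 bases, also occur in another Cyp2c gene, 17.5% of them in Cyp2c50. Cyp2c50 had 478, 506 and 489 in scrambled and 346, 297 and 356 in mimic livers, a log2 difference of -0.56 (95% interval -1.04 to -0.086) with a limma adjusted p of 0.815. Cyp2c37 had 1015, 964 and 946 against 858, 850 and 826, a difference of -0.21. Both were lower in every mimic liver by far less than Cyp2c54. Cyp2c44, the member farthest from the others on the chromosome and with none of its 50-base stretches in another member, had 919, 894 and 859 against 715, 745 and 790 (-0.25).

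Of 11 tested Cyp2c genes, 10 had a log2 difference below 0, with a median of -0.36. In 6 of the 11 all mimic values were below the scrambled values, against 4.35% of all genes. At an unadjusted p under 0.05, 4 were lower, against 2.3% of all genes. The mean log2 level of the list was 8.85, 9.06 and 8.92 in scrambled and 8.37, 8.53 and 8.45 in mimic livers, and the groups did not overlap. Of the other P450 genes and their partners 17 of 24 were below 0, with a median of -0.072. Cyp2b10, a drug-inducible P450, ranged from 114 to 220 in scrambled and from 38 to 107 in mimic livers (log2 difference -1.31, limma adjusted p 0.904). Por, the reductase that feeds electrons to all of these enzymes, had 1472, 1444 and 1323 against 1099, 1294 and 1220 (-0.23).

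Targets of Nrf2, the factor of the response to oxidants, were below 0 in 16 of 20 cases, with a median of -0.091. Their mean log2 level was 8.30, 8.34 and 8.30 in scrambled and 8.17, 8.15 and 8.23 in mimic livers, apart by a small margin. Nqo1, a quinone reductase, had 137, 185 and 152 in scrambled and 90, 92 and 154 in mimic livers, so mimic replicate 3 was within the scrambled range.

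Cd34 and Myh11 are members of the lists for vessels and connective tissue and were among the lower genes of smallest p, as was Timp3, and none of the 3 passed the threshold. Cd34, a surface sialomucin of endothelium and of fibroblasts, had 242, 223 and 328 in scrambled and 159, 127 and 117 in mimic livers (log2 difference -0.96, 95% interval -1.33 to -0.59, limma adjusted p 0.061). Myh11, the heavy chain of smooth muscle myosin, had 352, 244 and 838 against 140, 104 and 73 (-2.02, limma adjusted p 0.061). Timp3, an inhibitor of matrix proteases, had 422, 419 and 565 against 337, 294 and 230 (-0.71, limma adjusted p 0.061). Scrambled replicate 3 was the highest liver in each.

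Olfml2a, a protein of the matrix, had 133, 115 and 307 in scrambled and 44, 44 and 29 in mimic livers (log2 difference -2.10, limma adjusted p 0.061). Sema3g, a semaphorin of arterial endothelium, had 80, 82 and 201 against 37, 21 and 15 (-2.22, limma adjusted p 0.093). Acan, the cartilage proteoglycan aggrecan, had 33, 55 and 117 against 5, 11 and 1 (-3.54, limma adjusted p 0.093). In these 3 genes scrambled replicate 3 was again the highest liver. Ccl21a, a chemokine of lymphatic vessels, had 72, 48 and 89 against 3, 16 and 0, and its near-identical gene copies make its assignment uncertain. Adamts15, a protease of the matrix, had 71, 80 and 95 against 50, 42 and 44.

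Of 26 tested genes of stellate cells, fibroblasts and smooth muscle, 25 had a log2 difference below 0, with a median of -0.30, and 7 were lower at an unadjusted p under 0.05, against 2.3% of all genes. Without mimic replicate 3 the median was -0.15. Acta2, smooth muscle actin, had 442, 384 and 657 in scrambled and 353, 246 and 244 in mimic livers (-0.80, limma adjusted p 0.382). Col1a2, a chain of type I collagen, had 2093, 1753 and 2054 against 1530, 1413 and 1134 (-0.54). Cnn1, the smooth muscle calponin, overlapped, at 24, 10 and 82 against 6, 6 and 10. The mean log2 level of the list was 9.15, 8.99 and 9.41 in scrambled and 9.02, 8.80 and 8.42 in mimic livers, so mimic replicate 1 was above scrambled replicate 2. In 7 members all mimic values were below the scrambled ones, against 4.35% of all genes.

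Endothelial genes are given by vessel type. Of 12 genes of larger vessels and continuous capillaries, 9 were below 0, with a median of -0.47. Among the 12, 5 were lower at an unadjusted p under 0.05, against 2.3% of all genes. The median was -0.24 without scrambled replicate 3 and -0.77 without scrambled replicate 2. Ly6c1, an endothelial surface protein, had 18, 18 and 24 in scrambled and 6, 3 and 6 in mimic livers (log2 difference -1.84, limma adjusted p 0.558), and its relative Ly6a had 120, 108 and 149 against 73, 41 and 85. These genes have near relatives in the same cluster, which may share reads. Sinusoidal genes had a median of -0.054 over 19, and 13 were below 0. Lyve1, a hyaluronan receptor of sinusoids, had 278, 386 and 310 against 389, 461 and 380 (0.34), and Pecam1, which all endothelium carries, had 554, 477 and 649 against 408, 396 and 502 (-0.36). The difference between these lists was not tested.

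**Figure D4:**
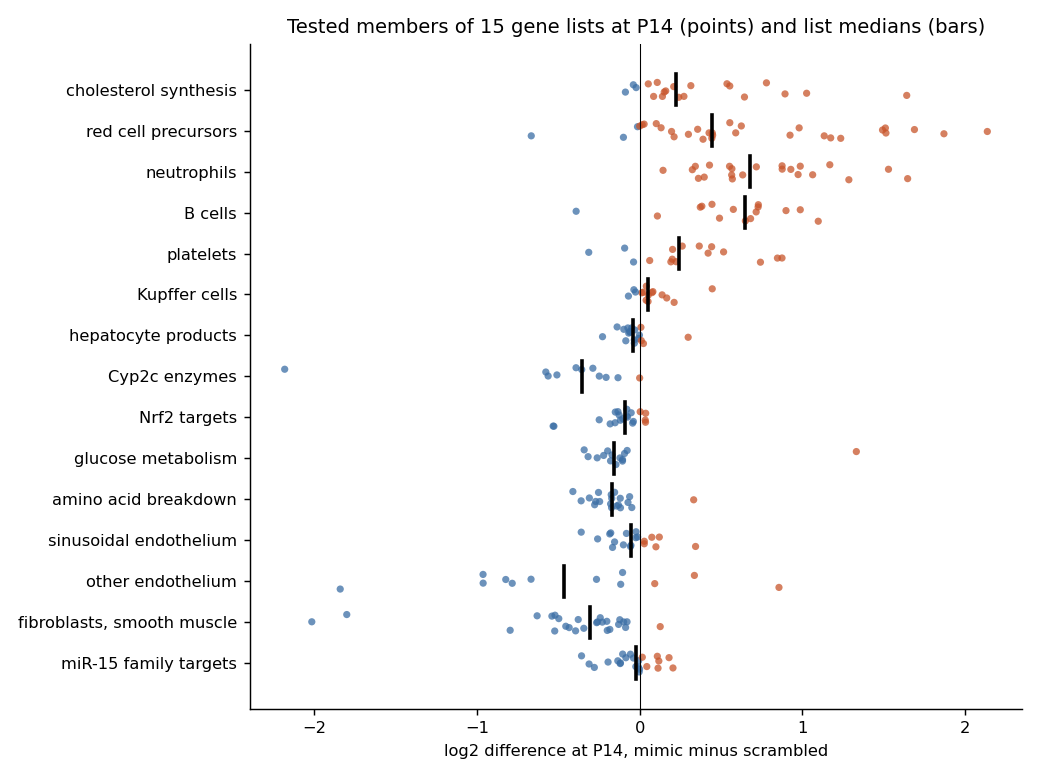
Log2 difference at P14 of each tested member of 15 gene lists. Points are genes, orange above 0 and blue at 0 or below, and black bars are list medians. Medians range from 0.68 for neutrophils to -0.47 for endothelium of larger vessels, and hepatocyte products lie near 0 at -0.041.

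Among the remaining lower genes of smallest p were receptors and enzymes. Egfr, the receptor for epidermal growth factor, had 1469, 1884 and 1451 in scrambled and 1140, 1133 and 824 in mimic livers, with a log2 difference of -0.64 (95% interval -0.96 to -0.31, limma adjusted p 0.290). Vldlr, a lipoprotein receptor, had 150, 273 and 303 against 88, 128 and 127 (-1.03, limma adjusted p 0.087). Akr1b7, an aldo-keto reductase, had 377, 371 and 455 against 197, 204 and 354 (-0.72, limma adjusted p 0.248).

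Among the remaining higher genes, Espn, an actin bundling protein, had 31, 23 and 28 in scrambled and 90, 53 and 108 in mimic livers (log2 difference 1.53, limma adjusted p 0.087). Slc16a6, a transporter for ketone bodies, had 158, 182 and 106 against 236, 243 and 257 (0.75, limma adjusted p 0.103). Meg3, an imprinted long noncoding RNA, had 39, 34 and 57 against 136, 64 and 95 (1.13, limma adjusted p 0.290). Kbtbd8, an adaptor of ubiquitin ligases, Pde12, a phosphodiesterase of mitochondria, and Zfp952, a zinc finger protein, had log2 differences of 1.31, 0.43 and 0.45, with limma adjusted p of 0.293, 0.290 and 0.293. Cdkn1a, which encodes the cell cycle inhibitor p21 and is a p53 target, had 238, 311 and 270 against 447, 513 and 419. Its log2 difference was 0.75 with a limma adjusted p of 0.468. The list of p53 targets did not lean with it, with 6 of 11 above 0, 5 below and a median of 0.052. Only 1 of them was higher at an unadjusted p under 0.05, against 3.11% of all genes.

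Of 14 glucose genes 13 were below 0, with a median of -0.16, and 4 were lower at an unadjusted p under 0.05, against 2.3% of all genes. The remaining gene, at 1.33, was the largest difference of the list and was higher at an unadjusted p under 0.05. Gys2, the glycogen synthase of liver, had 988, 956 and 1004 in scrambled and 716, 784 and 873 in mimic livers (log2 difference -0.32, 95% interval -0.52 to -0.12, limma adjusted p 0.471). G6pc, the catalytic unit that releases glucose, had 1341, 1525 and 1560 against 1157, 1354 and 1001 (-0.34), and Pck1, which opens gluconeogenesis, had a difference of -0.22. The groups stood apart for Gys2 and overlapped for the other 2.

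The enzymes of amino acid breakdown were below 0 in 19 of 20 cases, with a median of -0.17, and those of the urea cycle in 7 of 8, with a median of -0.12. Cps1, which starts the urea cycle, had 3738, 4278 and 3433 in scrambled and 2496, 3712 and 2927 in mimic livers (log2 difference -0.34, limma adjusted p 0.847). Hal, the histidine ammonia lyase, had a difference of -0.41. At P7 the medians of these 2 lists were 0.26 and 0.21, and at P14 the levels of both lists overlapped between the groups. Genes of bile acid synthesis were below 0 in 13 of 14 cases, with a median of -0.12.

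Fatty acid oxidation genes were below 0 in 15 of 20 cases, with a median of -0.081. In 6 of them all mimic values were below the scrambled ones, against 4.35% of all genes, and in 1 all were above. The differences reached 0.64. Genes of fatty acid and triglyceride synthesis had a median of -0.085 and reached 1.48. Cyp4a14, a fatty acid hydroxylase driven by PPAR alpha, had 1465, 1464 and 1594 in scrambled and 1070, 1288 and 1196 in mimic livers (log2 difference -0.35, 95% interval -0.54 to -0.16, limma adjusted p 0.301). Its neighbour Cyp4a10 had 567, 617 and 775 against 420, 517 and 486 (-0.45, limma adjusted p 0.376). These genes are close relatives and may share reads. Hepatocyte products and lineage factors as a whole were near 0, with a median of -0.041 over 18 genes.

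**Figure D5:**
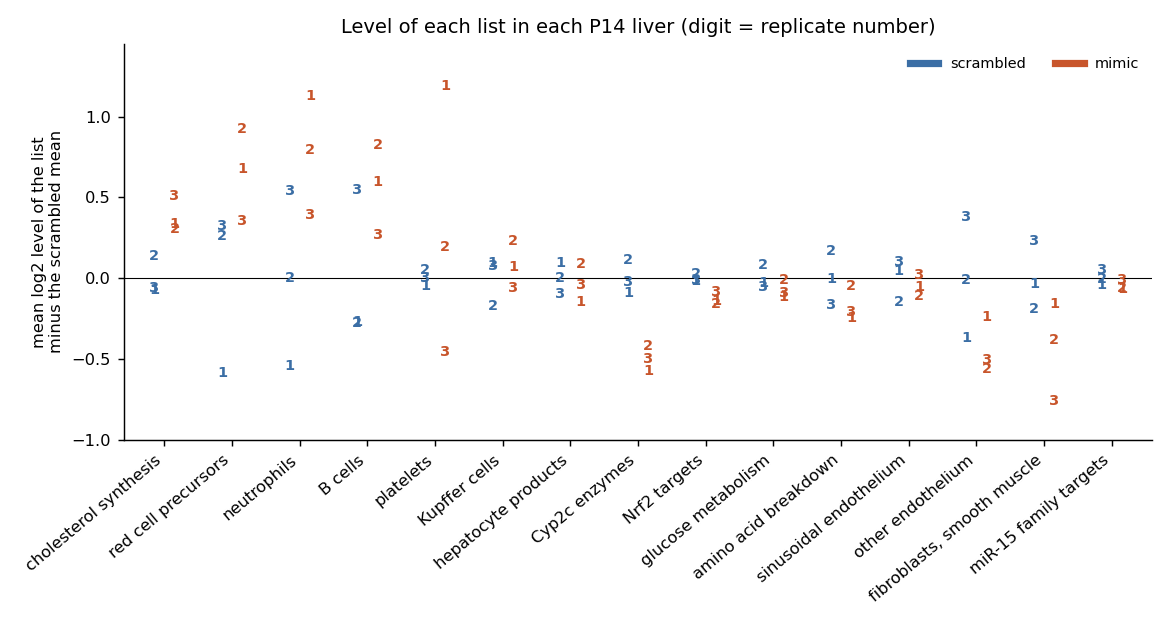
Mean log2 level of the tested members of each list in each P14 liver, minus the mean of the scrambled livers. Digits are replicate numbers, blue for scrambled and orange for mimic. The groups are apart for cholesterol synthesis, red cell precursors, Cyp2c enzymes and Nrf2 targets and overlap for the other lists drawn.

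Of the 45 lists, 6 had group levels that did not overlap at P14, where 9.31% of single genes did not overlap. Beside the lists of cholesterol synthesis, red cells, Cyp2c enzymes, Nrf2 targets and mast cell and related genes, these included the circadian clock, at 7.80, 7.84 and 7.89 in scrambled and 7.75, 7.75 and 7.73 in mimic livers. Nr1d1, a repressor of the clock, had 308, 191 and 229 against 164, 110 and 129 (log2 difference -0.84, limma adjusted p 0.815), and Per2, another clock repressor, had 169, 228 and 180 against 322, 196 and 295 (0.47, limma adjusted p 0.731). The hour at which each liver was taken is not given in the labels. Genes of mitosis were above 0 in 16 of 20 cases, with a median of 0.11, and genes of DNA replication in 9 of 17, with a median of 0.0014. Cux2, a sex-dependent liver factor that is higher in females, had 617, 409 and 487 against 260, 270 and 475. The highest mimic value was in the mimic liver with high Xist, but the highest scrambled value was in the scrambled liver with high chromosome Y genes.

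The genes named as targets of the family were taken as the direct readout of the mimic. Of 23 tested, 16 had a log2 difference below 0 and 7 above, with a median of -0.024, against a median of 0.0036 over all genes. None passed the threshold and 1 was lower at an unadjusted p under 0.05, against 2.3% of all genes. That gene was Ccnd2, which encodes cyclin D2, at 384, 367 and 512 in scrambled and 333, 351 and 293 in mimic livers. Its log2 difference was -0.36 (95% interval -0.63 to -0.086) with a limma adjusted p of 0.725. With 1 liver left out the difference was -0.45 to -0.21. E2f3, which encodes a factor that drives entry into S phase, had 204, 224 and 198 against 234, 237 and 238, a difference of 0.18 (-0.062 to 0.42). Insr, the insulin receptor, had -0.12 (-0.40 to 0.16), with groups that overlapped. The mean log2 level of the list was 8.02, 8.06 and 8.12 in scrambled livers and at most 8.05 in mimic livers, and the groups overlapped.

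The letters that pair with the seed are shown for these targets and for the genes of smallest p that carry them, because genes with differences of opposite sign hold the same letters. Each line gives 29 bases of a 3′ UTR on the transcript strand, 5′ to 3′, in mm10, with the 7-mer TGCTGCT that pairs with nucleotides 2 to 8 in capitals. An A right after the capitals makes it the 8-mer TGCTGCTA.
Ccnd2, chr6:127128531-127128559, minus strand: gtttcacggtgTGCTGCTattttagaaac
E2f3, chr13:29909225-29909253, minus strand: tggtagagttcTGCTGCTcgaagctgttg
E2f3, chr13:29907377-29907405, minus strand: taccattgagtTGCTGCTactaaaagctc
Insr, chr8:3154970-3154998, minus strand: tgaccaatagcTGCTGCTttcatatttta
Egfr, chr11:16917080-16917108, plus strand: aaacgttttttTGCTGCTtacacatccaa
Espn, chr4:152120929-152120957, minus strand: atccccaacccTGCTGCTggagtgctctc
Slc16a6, chr11:109451630-109451658, minus strand: tacctggtcacTGCTGCTggtgagttaca
Pde12, chr14:26662145-26662173, minus strand: ctttcagcagcTGCTGCTtagttttatga
Ccnd2 and the downstream E2f3 site are 8-mers, and the others are 7-mers. Insr holds 3 such sites and Espn and Slc16a6 hold 2 each, of which the first is printed. Of the genes printed, Ccnd2, Insr and Egfr had log2 differences below 0, and Espn, Slc16a6, Pde12 and E2f3 above 0. Of the 23 family targets 21 hold a 7-mer in the longest annotated 3′ UTR and 14 an 8-mer. Among the 12 higher genes of smallest p, 3 hold a 7-mer and 0 an 8-mer, and among the 12 lower genes 1 and 0. Of all 13190 tested genes with an annotated 3′ UTR, 24.5% hold a 7-mer and 4.59% an 8-mer.

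Over the whole table, the shares of genes above 0 were set side by side for genes with and without the site. Of the 605 tested genes with an 8-mer, 49.1% had a log2 difference above 0, and of the 2626 with a 7-mer but no 8-mer, 47.9%. The 9502 genes with no site of either 7-mer kind had 51.1%. Among genes with at least 2 and at least 3 copies of the 7-mer the shares were 47.0% of 781 and 44.7% of 217. The medians of the 8-mer genes and of the genes without a site were -0.0030 and 0.0034. Of the 14104 genes tested 3 (0.0213%) passed the threshold, none of them with a 7-mer. So few genes cannot set the classes apart. These classes were not matched for length. Split by transcript length into 3 equal sets, the tested genes had shares above 0 of 59.1%, 51.5% and 42.7% from short to long. The part of length in the shares by site was not tested.

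Genes of the response to foreign RNA were looked at because the injected oligonucleotides are RNA analogues. Of 31 interferon genes and RNA sensors, 20 were above 0, with a median of 0.078, and 1 was higher at an unadjusted p under 0.05, a share near the 3.11% of all genes. That was Irf7, a factor that amplifies interferon, at 281, 266 and 254 in scrambled and 384, 294 and 308 in mimic livers (log2 difference 0.29, limma adjusted p 0.871). The 13 genes of microRNA processing and silencing had a median of -0.050, with 10 below 0.

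Because the liver matures over these days, genes were also grouped by how they changed from P5 to P7, a contrast between P5 and P7 means. No P14 value enters those means, but the P14 libraries share in the estimate of the spread and in the filter. P7 scrambled replicates 2 and 3 enter those means with 22132 and 30412 genes above 0. The other P5 and P7 libraries had 19198 to 20418. Over both injections 1931 genes rose (13.7%) and 1867 fell (13.2%) at a limma adjusted p under 0.05. Of those that rose, 1404 had a log2 difference below 0 between mimic and scrambled livers at P14 and 527 above, or 27.3% above. Of those that fell, 1368, or 73.3%, were above 0. Their medians were -0.078 and 0.067, against 0.0036 over all genes. The gene groups thus leaned in opposite directions, by small amounts on the log2 scale.

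This lean moved with the length slope of the libraries and with single livers. The median transcript length was 5252 bases in the genes that rose and 1966 in those that fell, against 3293 in all. With the length slope of each library as a covariate, the shares above 0 at P14 were 41.3% and 58.8%, and the count of genes that changed from P5 to P7 dropped from 3798 to 1. Among genes split by length into 3 equal sets, from short to long transcripts, the shares were 32.0%, 31.2% and 25.6% of the genes that rose and 73.0%, 73.3% and 74.7% of those that fell. Over all tested genes of the same 3 sets the shares were 59.1%, 51.5% and 42.7%. Without mimic replicate 1 the shares were 42.1% and 63.1%, and with the red cell covariate 39.5% and 56.5%.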

How the data were processed

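The series holds stranded messenger RNA libraries of 18 mouse livers. In the deposited table each value is a score: a read count that the authors scaled between libraries and rounded to whole numbers, judged from the values themselves. The sums of the libraries are close but not equal. The submitters' processing notes list STAR 2.6.1d, featureCounts 1.6.5, Trimmomatic 0.39, Picard 2.21.7 and DESeq2 1.26.0, and the build mm10 (GRCm38). Raw depth is not known from these values, so no count model was run.

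The fit used limma 3.58.1 (R 4.3.3) on log2(value + 1) for 14104 genes whose average over all libraries was at least 10. It had 6 group means, a mean-variance trend and Benjamini-Hochberg adjustment over those genes, with a threshold of 0.05, and the 18 libraries shared 1 estimate of the spread. Differences on this scale understate those of low genes. Whether they also understate those of the most abundant genes was not tested. GENCODE M21 gave transcript lengths and 3′ UTRs. The fit was checked on simulated data.

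Members and the 45 gene lists were chosen with earlier results of these data known. Named genes are those past the threshold, the 12 higher and 12 lower of smallest p with a P14 mean of 20 or more and groups apart, up to 4 per list, and whole lists of sterol enzymes, Cyp2c enzymes, family targets and sex genes. The alternatives varied the pseudocount, filter, scaling, trend, weights, covariates and livers. The labels do not pair the livers, and no pairing by replicate number was evident. Same-numbered P14 livers had correlations of 0.090, 0.17 and -0.12 between their deviations from the group means. With 3 livers per group such values cannot exclude a shared litter or dam. Some genes that the rule gives are not reported here.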

Additional observations from a re-analysis of the deposited data

Results flagged for a closer look

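The effect of the mimic on Sqle differed between the days by a test of the difference itself: the log2 difference at P14 minus the mean of those at P5 and P7 was 1.62 (limma adjusted p 1.57e-04). At P14 all 3 mimic livers were above the scrambled ones, and at P5 and P7 the groups overlapped, with log2 differences of -0.05 and 0.11. The same test gave 2.15 for Kel (limma adjusted p 0.045), whose differences at P5 and P7 were -0.01 and -0.01. The red cell list, to which Kel belongs, had its highest P14 levels in mimic replicates 1 and 2, at 5.89 and 6.13, and its lowest in scrambled replicate 1, at 4.63. The part of that level in the Kel difference was not tested beyond the covariate, with which the difference of Kel at P14 was 1.49.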

How the results depend on the processing

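The number of genes past the threshold at P14, 3 as reported, was 5 with a pseudocount of 5, 11 with TMM scaling, 7 with the chromosome Y covariate, 1 with the red cell covariate and 0 in the fit to the P14 libraries with the length slope, added after seeing the data. In that last fit 720 genes had an unadjusted p under 0.05. The replicate block, which matched livers by replicate number alone, gave 9. Leaving out 1 P14 liver gave 3 to 16: 15 without scrambled replicate 2, 16 without scrambled replicate 3 and 8 without mimic replicate 3.

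Between P14 and the earlier days, 2 genes passed as reported and 1 with a pseudocount of 5, quantile normalization, no mean-variance trend, array weights, the length slope, chromosome Y or red cell covariate, the replicate block, or without P7 scrambled replicates 2 and 3 (added after seeing the data). Leaving out 1 P14 liver gave 1 to 3. From P5 to P7 the 3798 genes became 5939 with array weights, 1 with the length slope and 1470 without P7 scrambled replicates 2 and 3. Of these fits only the last was added after seeing the data.

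Among the genes named with a log2 difference, 4 reversed somewhere. With 1 liver left out Fdft1 was at -0.061 to 0.022 and Ebp at -0.13 to 0.0075. Hba-a1 was 0.0038 with array weights and -0.044 to 0.017 with 1 liver left out, and Hbb-bt -0.039 with the red cell covariate. The cause of these changes was not tested. Of the 45 list medians, 21 changed sign under at least 1 setting, among them platelets, T and NK cells, Kupffer cells, sinusoids, mitosis, DNA replication, hepatocyte products and fatty acid oxidation. The red cell median was -0.0068 with the red cell covariate, which is built from that list. Cyp2c54 was past the threshold in neither the fit without the trend (adjusted p 0.0873) nor that with array weights (0.0755). Raw depth is not known, and values of a few scaled counts, such as those of Kel and Mcpt8, rest on few reads.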
